A study of Mus musculus with 6 samples.

Results

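The genes described here encode the CD3 chains of the T cell receptor complex (Cd3d, Cd3e, Cd3g and Cd247) and the kinases and adaptors that first relay its signal (Zap70, Fyn, Lat and Lcp2). They were chosen by name, as the probes whose platform annotation gives 1 of these symbols alone. This found 15 probes of 8 genes, out of 34945 single-symbol probes of 18193 genes on the array. Lck, the other kinase named by the same rule, is not analysed here. Expression was measured on 6 arrays of thymocytes sorted on surface CD4 and CD8 into double-positive cells (DP, both coreceptors), CD4intCD8+ cells (intermediate CD4) and CD8 single-positive cells (CD8SP), with 2 arrays per stage. Cells of every stage carried the N15 T cell receptor transgene (N15 TCR tg+/+) and were RAG-2-/- by their labels, in mice of H-2b haplotype aged 5 to 6 weeks. Per the labels 6 mice gave the cells of 2 independent experiments, and the number of animals behind an array is not given. The promoter of the transgene is likewise not given in the sources used here. Nothing beyond the experiments ties an array to separate animals, so the spread behind each p-value is that between arrays and may be technical.

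The T cell receptor has no enzyme of its own. Its antigen-binding chains assemble with the CD3 gamma, delta and epsilon chains and a zeta dimer encoded by Cd247, whose tails carry tyrosine motifs that Src kinases such as Lck and Fyn phosphorylate. Zap70 docks on the phosphorylated motifs and then phosphorylates Lat and SLP-76, the product of Lcp2, which gather the enzymes of calcium and Ras signalling. In DP thymocytes this relay reads whether the receptor recognises self peptide on MHC, and without RAG-2 a transgene such as N15 has to supply the receptor.

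Cd3g, Cd3d and Cd3e lie side by side on chromosome 9, and Cd3g and Cd3d are transcribed away from each other from starts 1355 bases apart in the RefSeq table of build GRCm38.p6. Upstream sequence is shown for this divergent pair, of which Cd3d fell from DP to CD8SP and Cd3g did not pass the test, and for Cd247 and Lat, the genes that fell already at the first step. Each run holds the 250 bases before the listed start, 5′ to 3′ on the gene's own strand (RefSeq, GRCm38.p6). Capitals mark the Ets-type letters AGGAAG read on either strand, so that CTTCCT is the same match on the other strand.
Cd3g, chr9:44980432-44980681, minus strand: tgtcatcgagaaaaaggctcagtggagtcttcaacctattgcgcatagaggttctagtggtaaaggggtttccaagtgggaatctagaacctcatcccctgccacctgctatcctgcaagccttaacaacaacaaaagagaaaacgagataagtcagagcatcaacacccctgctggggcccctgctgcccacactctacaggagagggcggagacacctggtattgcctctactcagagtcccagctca
Cd3d, chr9:44981536-44981785, plus strand: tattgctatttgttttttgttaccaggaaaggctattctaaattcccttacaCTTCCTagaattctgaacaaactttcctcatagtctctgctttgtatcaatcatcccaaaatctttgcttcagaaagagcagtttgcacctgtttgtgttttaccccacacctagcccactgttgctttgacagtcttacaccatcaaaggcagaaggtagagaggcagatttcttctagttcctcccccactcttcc
Cd247, chr1:165788431-165788680, plus strand: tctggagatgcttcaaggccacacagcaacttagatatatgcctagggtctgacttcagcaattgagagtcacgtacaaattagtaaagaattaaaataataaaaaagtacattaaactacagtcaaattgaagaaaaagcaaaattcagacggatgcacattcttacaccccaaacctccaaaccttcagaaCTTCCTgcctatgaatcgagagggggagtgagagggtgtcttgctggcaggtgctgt
Lat, chr7:126369569-126369818, minus strand: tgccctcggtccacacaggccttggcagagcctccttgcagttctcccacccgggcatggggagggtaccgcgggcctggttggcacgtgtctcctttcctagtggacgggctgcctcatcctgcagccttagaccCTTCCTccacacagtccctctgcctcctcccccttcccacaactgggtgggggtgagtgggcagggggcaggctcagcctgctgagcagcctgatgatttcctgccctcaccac
Of the 8 genes, 6 had AGGAAG in a 250-base window and 6 had the E-box letters CAGNTG, which include sites of E proteins. In these windows no match of one motif overlapped a match of another. These letters stood in 29.5% and 44.8% of all 32851 promoter windows of that length. By window, of which Zap70 has 3, AGGAAG was in 7 of 10 and CAGNTG in 7 of 10. The Runx-type letters TGTGGT were in 1 of 10 windows, against 14.0% of all windows, and TATAAA in 0 of 10, against 12.4%, both read on either strand. A match is a description of the letters and not of a bound site. Cd3g lacked AGGAAG and held CAGNTG at 2 places, while Cd3d, Cd247, Lat and Lcp2 held each motif at 1 place. Of the other genes not called over the span, Cd3e held AGGAAG at 2 places, Zap70 held it too, and Fyn lacked both motifs. A relation between these letters and the changes was not tested.

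The arrays were on a common scale, with median probe intensities from 24.9 to 25.7. The actin 3′ to 5′ signal ratio, a sign of RNA length, was 1.98 and 2.14 in DP, and 2.37 and 3.47 in CD4intCD8+. It was 2.28 and 2.62 in CD8SP. CD4intCD8+ replicate 2 stood above the other 5 arrays, and both DP arrays stood below every array of the later stages. The ratio and the stage are therefore not separate in the comparisons with DP. The stage markers differed between the labelled stages: the summed intensity of 7 DP markers, among them Rag1 and Cd4, was 11108 to 12523 in DP, 5213 to 6198 in CD4intCD8+ and 5137 to 5202 in CD8SP, and that of 8 markers of maturing CD8 thymocytes, among them Itgae and Klrd1, was 873 to 1353 in DP, 2076 to 3426 in CD4intCD8+ and 5479 to 5672 in CD8SP. The DP sum includes Cd8a and Cd8b1, which CD8SP cells also express. Rag1 read 1046 and 1054 in DP, 101 and 134 in CD4intCD8+ cells and 57.9 and 97.9 in CD8SP. Cd4 read 351 and 515 in DP, -33.0 and 11.8 in CD4intCD8+ cells and -65.8 and -68.6 in CD8SP, so its probe was near 0 or below at the stage sorted for intermediate CD4 protein. The Rag2 probe gave 137 and 193 in DP, against 30.1 or less on later arrays, and since its place relative to the deleted part of the gene is unknown here it does not check the genotype. Summed markers of other cells were low, from 88.4 to 227 for 4 B cell genes, 122 to 181 for 5 myeloid, 91.8 to 122 for 4 dendritic, 52.0 to 77.8 for 3 natural killer, 61.9 to 123 for 3 erythroid and 111 to 135 for 4 epithelial genes. No marker was at 0 on every array. The B cell marker Cd79b was higher in CD8SP, at 68.5 and 66.0, than in DP, at 31.9 and 34.9 (0.90 ± 0.19, adjusted p = 0.0118), while Cd79a was at 15.8 or less on all arrays, under the filter on dim genes. The 3 markers of double-negative thymocytes summed to 75.6 to 88.9 in DP, 93.1 to 164 in CD4intCD8+ and 89.3 to 182 in CD8SP. Among them Ptcra, named after its values were seen, read 120 and 111 on replicate 2 of CD4intCD8+ and of CD8SP. On the other arrays it read 37.9 to 49.9, and it was not called. The part of the actin ratio and of the markers of other cells in the results below was not tested, except where the actin ratio entered the fit as a covariate.

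From DP to CD8SP, 4 of the 8 genes fell and 0 rose: Cd3d, Cd247, Lat and Lcp2. Their log2 changes lay between -0.73 and -0.47. Across all genes tested 8.35% were called lower and 11.5% higher in CD8SP, 19.8% in all (limma, Benjamini-Hochberg adjusted p under 0.05). The probes that stand for the 8 genes were bright, at percentiles 94.45 to 99.6 of all probes by mean log2 value. Among the brighter genes kept by a 60th-percentile filter, 26% were called in CD8SP over DP and 17.3% in CD4intCD8+ over DP. The share among genes as bright as these 8 was not counted. The median change of the 8 genes was -0.37, beside 0.01 for all 10916 tested genes. At the first step, CD4intCD8+ against DP, Lat and Cd247 fell, 2 of 8 where 4.84% of all genes were called lower, and 0 rose (6.86% of all genes; 11.7% in either direction). At the second step, CD8SP against CD4intCD8+, 0 of 8 were called by limma, 1 (Cd3d) had an unadjusted p under 0.05 (9.61% of all genes did), and 0.119% of all genes were called, 0.0183% lower and 0.101% higher. A moderated F test over the stages called the same 4 genes as the whole span, where 15.2% of all genes were called. Whether the arrays of a pair of stages overlap is a weaker criterion: from DP to CD8SP 5 of 8 genes had both later arrays below both earlier ones (29.1% of all genes) and 0 above (32.4%). At the first step these counts were 6 (27.9%) and 0 (30.8%), and at the second 1, Cd3d (18.6%), and 1, Zap70 (20.2%). In sorted populations measured in bulk, fewer cells of a type and less RNA per cell cannot be told apart.

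**Figure D1:**
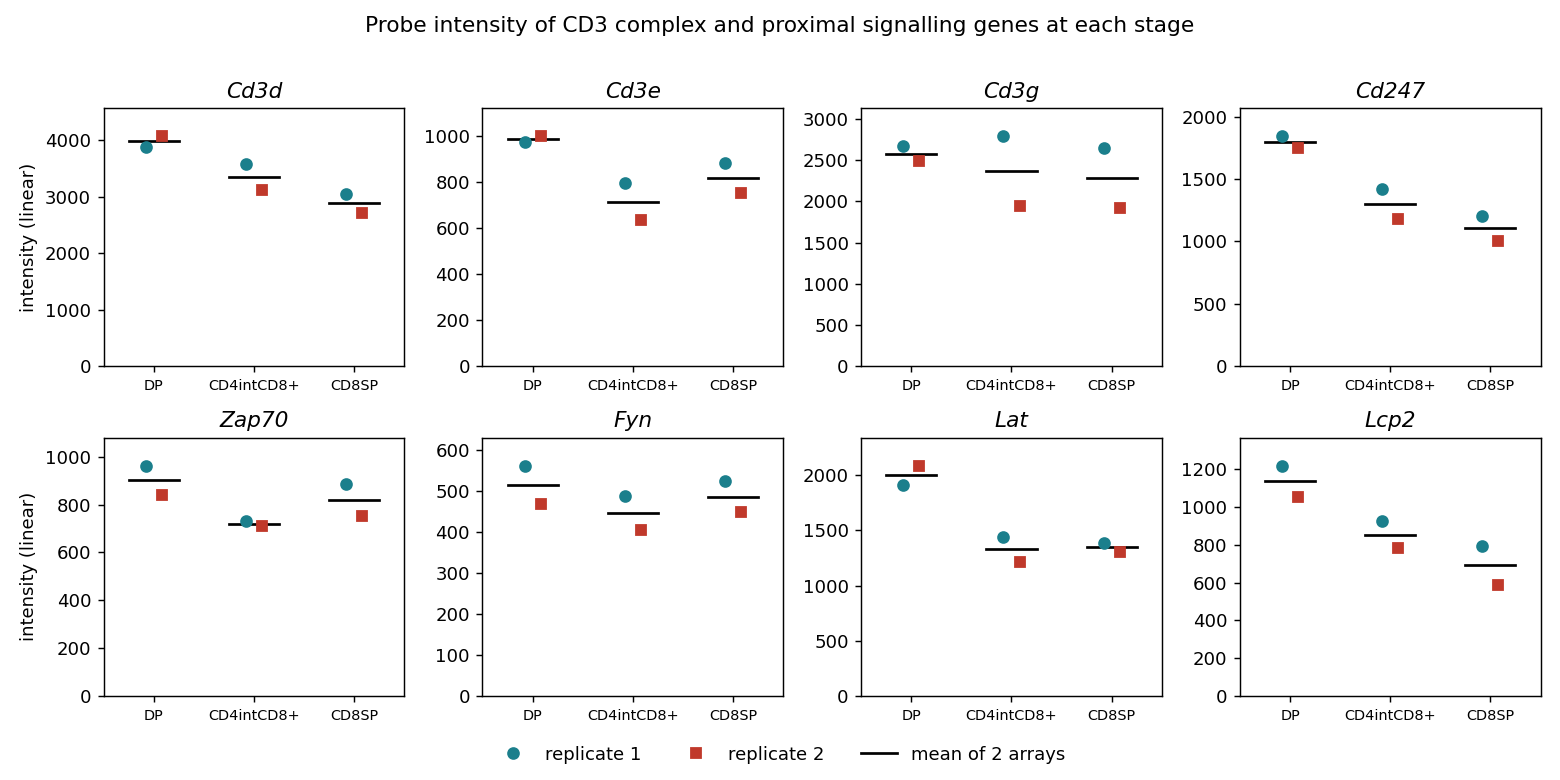
Linear probe intensity (vertical axes, each starting at 0) at the 3 stages (horizontal axes) for the probe that stands for each gene; circles are replicate 1, squares replicate 2 and bars the mean of 2 arrays. Both CD8SP arrays lie below both DP arrays for Cd3d, Cd3e, Cd247, Lat and Lcp2, while the arrays of Cd3g, Zap70 and Fyn overlap between those stages.

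Among the CD3 chains, Cd247 had the lowest whole-span change. This gene encodes the zeta chain, which carries most of the signalling motifs of the complex. Its brightest probe (1426396_at) read 1845 and 1745 in DP, then 1422 and 1181 in CD4intCD8+ and finally 1205 and 1004 in CD8SP. Every later array was below both DP arrays, and the CD4intCD8+ and CD8SP arrays overlapped. Cd247 fell at the first step, with a log2 change of -0.47 ± 0.12 (SE; limma adjusted p = 0.0427), and over the whole span, with -0.70 ± 0.12 (adjusted p = 0.00509). The second step was -0.24, with a 95% interval from -0.52 to 0.05. The first-step call was lost under 8 of the 16 alternatives, without DP replicate 1 (adjusted p = 0.192), DP replicate 2 (0.128) or CD4intCD8+ replicate 2 (0.245) among them. The covariate for the actin ratio moved it most, to -0.19 (0.576), and the whole-span call was lost when all probes of the gene were averaged (0.0647).

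Cd3d, the delta chain gene, was lower on each later pair of arrays. Its intensity (probe 1422828_at) was 3882 and 4072 in DP arrays, 3572 and 3120.2 in CD4intCD8+ and 3051 and 2706 in CD8SP. The 3 pairs of arrays did not overlap. The log2 changes were -0.25 ± 0.09 for the first step (adjusted p = 0.106), -0.22 ± 0.09 for the second (adjusted p = 0.502) and -0.47 ± 0.09 for the whole span, where Cd3d fell (adjusted p = 0.00804). With the replicate number as a block the first step was called as well (adjusted p = 0.0321), but it was -0.07 with the actin covariate (0.813) and -0.15 without CD4intCD8+ replicate 2 (0.488). The whole-span call was lost without DP replicate 2 (0.0607), without CD8SP replicate 2 (0.0617) and without the intensity trend (0.0657).

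Cd3e, whose epsilon chain pairs with the gamma and the delta chain, had its lowest mean at the intermediate stage. The probe (1422105_at) read 974 and 1002 in DP, 795 and 638 in CD4intCD8+ cells and 884 and 755 in CD8SP, so that both later stages lay below DP and overlapped each other. The first-step change was -0.47 ± 0.13 and missed the threshold (adjusted p = 0.0542). It passed with the replicate block (0.00955), with the 60th-percentile filter (0.0461) and without CD4intCD8+ replicate 1 (0.0245). The value dropped in size to -0.18 with the actin ratio as a covariate (adjusted p = 0.650) and -0.31 without CD4intCD8+ replicate 2 (0.317). The second step was 0.20 (95% interval from -0.11 to 0.50) and the whole span -0.27 ± 0.13 (adjusted p = 0.194).

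Cd3g, the gamma chain gene next to Cd3d, differed less between stages than between the arrays of either later stage. Intensities (probe 1419178_at) were 2669 and 2489 in DP, 2794 and 1949.9 in CD4intCD8+ cells and 2649 and 1923 in CD8SP. Replicate 1 of each stage lay above all arrays numbered 2, and the stages overlapped. The whole-span change was -0.19, with a 95% interval from -0.60 to 0.22 (adjusted p = 0.505). Within replicate 1 Cd3g differed by -0.01 between CD8SP and DP and within replicate 2 by -0.37, beside -0.35 and -0.59 for Cd3d and -0.61 and -0.79 for Cd247 on the same arrays. The direction for Cd3g turned with the actin ratio as a covariate (0.07) and without CD8SP replicate 2 (0.04), and the first-step change of -0.14 was 0.12 without CD4intCD8+ replicate 2.

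**Figure D2:**
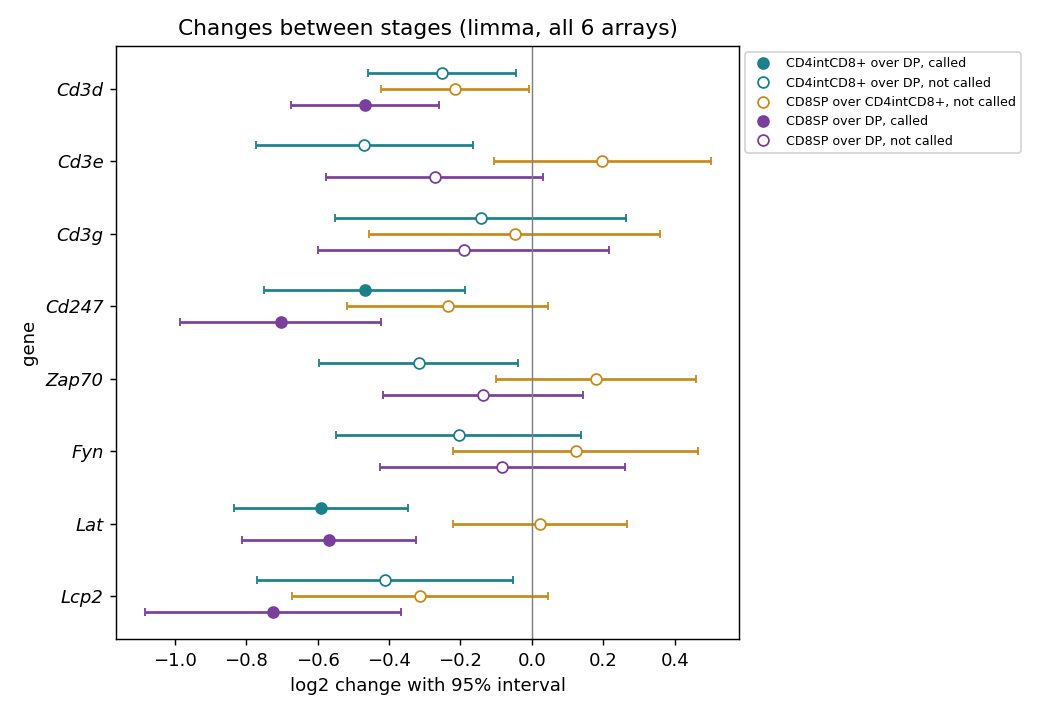
Log2 change (horizontal axis) with its 95% interval for each gene (vertical axis) in the 3 comparisons; filled points were called at an adjusted p under 0.05 and open points were not. The 4 genes called for CD8SP over DP are Cd3d, Cd247, Lat and Lcp2, and 0 points are filled for CD8SP over CD4intCD8+.

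The 2 kinase genes measured were not called in any comparison of the fit without a block. Zap70 binds the phosphorylated CD3 and zeta tails. Its brightest probe (1440178_x_at) read 963 and 839 in DP, 730.3 and 711 in CD4intCD8+ cells and 888 and 751 in CD8SP. Both CD4intCD8+ arrays were below all arrays of DP and of CD8SP. The changes were -0.32 ± 0.12 at the first step (adjusted p = 0.128, and 0.0335 with the replicate block) and 0.18 ± 0.12 at the second (adjusted p = 0.713). The first-step value was -0.19 with actin in the fit (adjusted p = 0.664) and -0.21 with the mean of all probes (0.319). The contrast of CD4intCD8+ with the mean of the other stages, which tests whether the steps differ, gave -0.25 ± 0.11 and was not called (adjusted p = 0.384). It called 0 of the 8 genes and 1 gene in all, a higher one (0.00916% of all genes). For 3 of the 8 (Cd3e, Zap70 and Lat) the unadjusted limma p was under 0.05. The share of all genes with such a p in this contrast was not counted.

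The measurements of Fyn, the Src family kinase that acts beside Lck, overlapped throughout. It had intensities (probe 1417558_at) of 562 and 468 in DP, 489 and 404 in CD4intCD8+ cells and 523 and 448 in CD8SP. The whole-span change was -0.08, with a 95% interval from -0.42 to 0.26 (adjusted p = 0.746), and the first-step change was -0.20 (interval from -0.55 to 0.14). With the actin ratio as a covariate both were above 0, at 0.07 and 0.09, and the whole-span change was 0.05 without DP replicate 1 and 0.03 without CD8SP replicate 2.

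Both adaptor genes fell over the whole span. Lat encodes the membrane scaffold that Zap70 phosphorylates. Its only probe (1460651_at) read 1911 and 2089 in DP, 1443 and 1216 in CD4intCD8+ cells and 1387 and 1305 in CD8SP. Both later stages lay below DP and overlapped each other. Lat averaged 1346 ± 58.4 in CD8SP and 2000.3 ± 126 in DP (SD, n = 2 each), a log2 change of -0.57 ± 0.11 (limma adjusted p = 0.00703), and the first-step change was -0.59 ± 0.11 (adjusted p = 0.0116). The second step was 0.02, with a 95% interval from -0.22 to 0.27. The contrast that tests whether the steps differ was -0.31 ± 0.09 and was not called either (adjusted p = 0.297). The whole-span call was lost without DP replicate 2 (0.0601), and the first-step call without DP replicate 2 (0.0813), without CD4intCD8+ replicate 2 (0.0648), with no intensity trend (0.0535) and with the actin ratio in the fit (0.165).

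Lcp2 encodes SLP-76, the cytosolic adaptor that joins Lat. The brighter of its probes (1418641_at) read 1220.2 and 1054 in DP, 925 and 783 in CD4intCD8+ cells and 793 and 589 in CD8SP. Both later stages lay below DP. Over the whole span Lcp2 fell, with a log2 change of -0.73 ± 0.16 (adjusted p = 0.0130), the lowest among the 8 genes. The steps were -0.41 ± 0.16 (adjusted p = 0.124, and 0.0104 with the replicate block) and -0.31 ± 0.16 (adjusted p = 0.580). With actin in the fit the first step was -0.09 (adjusted p = 0.869). The whole-span call was lost without DP replicate 1 (0.0971), without CD8SP replicate 2 (0.0799) and with the mean of both probes, where the change was -0.43 (0.0652).

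The probes of a gene gave different values. Cd247 has 4 probes, Zap70 3, and Fyn and Lcp2 have 2 each, and every probe was tested on its own among 27022 probes. From DP to CD8SP, 5 of the 15 probes were called lower, where 5.07% of all probes were: those of Cd3d and Lat, the brighter of Lcp2, and 2 of Cd247. At the first step 1 of 15, that of Lat, was called, where 2.49% of all probes were, and at the second 0 (0.0148% of all probes were called lower). Of the 15 probes, 9 had both CD8SP arrays below both DP arrays, and 0 had both above. For genes, by their brightest probe, the shares over all were 29.1% and 32.4%. The shares of all probes were not counted, and probes of 1 gene are not independent.

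The second Cd247 probe in brightness (1452539_a_at) read 451 and 495 in DP, 299 and 116 in CD4intCD8+ cells and 228 and 185 in CD8SP. Its CD8SP change was -1.18 ± 0.34 (adjusted p = 0.0595), and its lowest value was that of CD4intCD8+ replicate 2, the array with the actin ratio of 3.47. The third (1420716_at) read 113 and 113 in DP, 79.8 and 60.1 in CD4intCD8+ cells and 70.0 and 56.5 in CD8SP and fell over the span (-0.79 ± 0.19, adjusted p = 0.0292). The dimmest (1426079_at) lay between 21.1 and 34.9 on all arrays, close to the median of the array, with a change of 0.14 ± 0.27. So 3 of the 4 probes had every CD8SP array below every DP array (the share of all probes was not counted), and the one near the array median did not.

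The dimmer Lcp2 probe (1418642_at) read 155 and 152 in DP, 142 and 132 in CD4intCD8+ cells and 139.6 and 139.8 in CD8SP, in the same direction but with a change of -0.13 ± 0.15 (adjusted p = 0.624). The suffix of the brightest Zap70 probe marks probes that may share sequence with other transcripts, and the other 2 Zap70 probes lack it. The brighter of these (1422701_at) read 715 and 717 in DP, 612 and 496 in CD4intCD8+ cells and 631 and 535 in CD8SP. Its CD8SP arrays were thus below DP, unlike those of the brighter probe, with a change of -0.30 ± 0.14 (adjusted p = 0.212). The dimmer (1439749_at) lay between 72.4 and 83.7 on all arrays, with changes of 0.05 ± 0.16 at the first step and -0.08 ± 0.16 over the span. The other Fyn probe (1448765_at) read 424 and 271 in DP, 382 and 310.04 in CD4intCD8+ cells and 431 and 299 in CD8SP, with more difference between replicates than between stages.

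**Figure D3:**
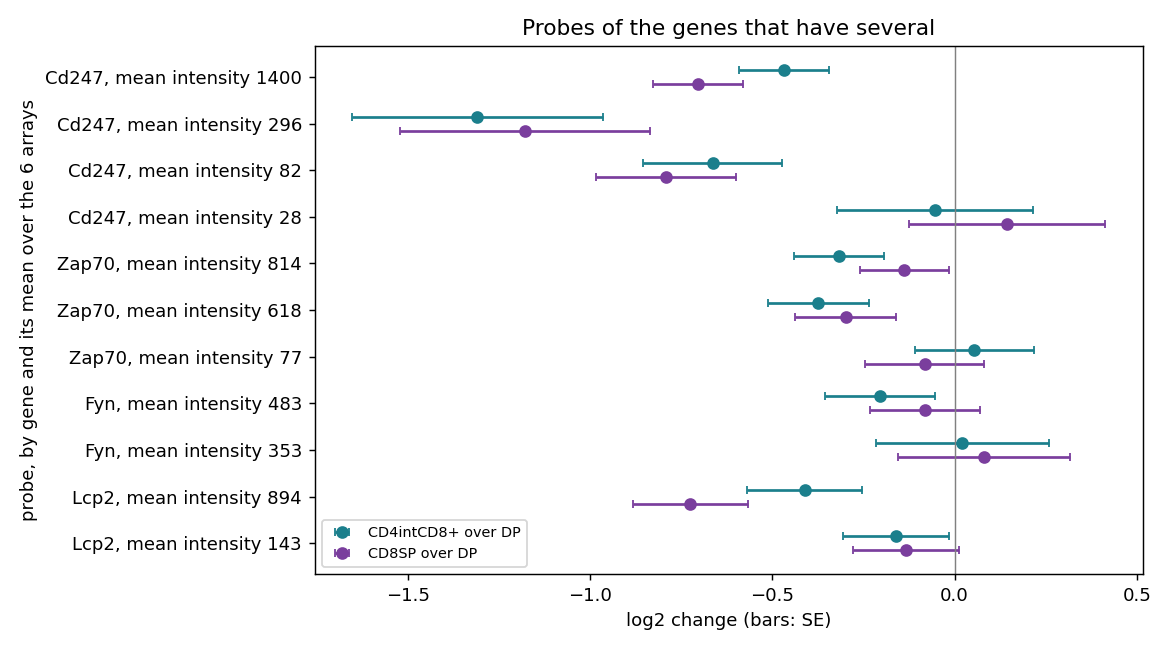
Log2 change with its SE (horizontal axis) for each of the 11 probes of Cd247, Zap70, Fyn and Lcp2 (vertical axis, ordered by mean intensity within a gene), for CD4intCD8+ over DP and CD8SP over DP. The 3 brighter Cd247 probes lie below 0 in both comparisons, and the dimmest lies at -0.05 and 0.14.

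For most of these genes replicate 1 read above replicate 2. In CD4intCD8+ and in CD8SP replicate 1 was above replicate 2 for 8 of 8 genes, and in DP for 5 of 8 (shares of all genes by stage were not counted). For Cd3g, Cd247, Zap70, Fyn and Lcp2 this held in every stage, 5 of 8 where 18.1% of all tested genes showed it. Compared within a replicate number, 8 of 8 genes were lower in CD8SP than in DP in both replicates, and 7 of 8, all but Cd3g, were lower in CD4intCD8+ than in DP. At the second step Cd3d, Cd3g, Cd247 and Lcp2 were lower within both replicates, and Cd3e, Zap70 and Fyn were higher within both. The shares of all genes with such within-replicate differences were not counted, so these counts have no baseline. With the replicate number as a block the first-step count of called genes was 6 of 8 (all but Cd3g and Fyn, and all lower), where 23.5% of all genes were called, and the whole-span count was 4, where 30.0% of all genes were called. The first-step count was 0 with actin in the fit, where 3.73% of all genes were called. The whole-span count was 4 with the actin covariate, where 18.8% of all genes were called. With some arrays left out, fewer of these genes and also fewer of all genes were called, as given in the closing section.

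The genes with the most similar profile over the 6 arrays, by Euclidean distance between log2 values centred on each gene's mean, were other genes than the 8 in all but 1 case. For Cd247 they were Cd84, a receptor of the SLAM family (distance 0.12), Stx7 (0.12) and Sash3, an adaptor of lymphocytes (0.13), with Lcp2 at 0.17 the nearest of the 8 genes. For Lcp2 they were Tspyl1 (0.07), Cdk17 (0.15) and Cd247 (0.17). For Cd3d they were Paip2 (0.09), Skap1, an adaptor (0.10), and Chmp5 (0.10), and for Lat Phf23 (0.09), Sla2, another adaptor (0.10), and Rcsd1 (0.11). Zap70 was nearest to Rela, Dnajc14 and Pacs1 (0.05 to 0.08), Fyn to Ncoa2, Kdsr and Fam13b (0.07 to 0.08), Cd3e to Jund, Tprgl and Med15 (0.09 to 0.12) and Cd3g to Tmprss15, Cadm3 and Il1b (0.06 to 0.13). The neighbours Cd3d and Cd3g were not each other's nearest among the 8 genes, which were Cd247 for Cd3d (0.29) and Fyn for Cd3g (0.32).

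In a wider set of genes, called the wider pathway here, most of those called after the DP stage were lower. Beside signalling genes the set holds 5 tested surface genes of the T lineage and 9 transcription factors, of which 4 and 5 fell over the span. Of 77 listed genes 65 had a probe and 61 passed the filter on dim genes. From DP to CD8SP, 25 of the 61 fell and 5 rose, beside the 8.35% and 11.5% of all genes given above, and their median change was -0.40. At the first step 19 fell (4.84% of all genes did) and 1 rose (6.86%), with a median of -0.31. At the second 0 of 61 were called by limma (13 had an unadjusted p under 0.05, where 9.61% of all genes did). With the replicate block 7 were called, 6 of them lower, where 2.08% of all genes were called. The first-step count of 20, where 11.7% of all genes were called, was 34 with the block (23.5%) and 9 with actin in the fit (3.73%). It was lower without DP replicate 1, DP replicate 2 or CD4intCD8+ replicate 2, where fewer of all genes were called as well. The whole-span count of 30 was likewise lower without DP replicate 2 or CD8SP replicate 2, where fewer of all genes were called too.

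**Figure D4:**
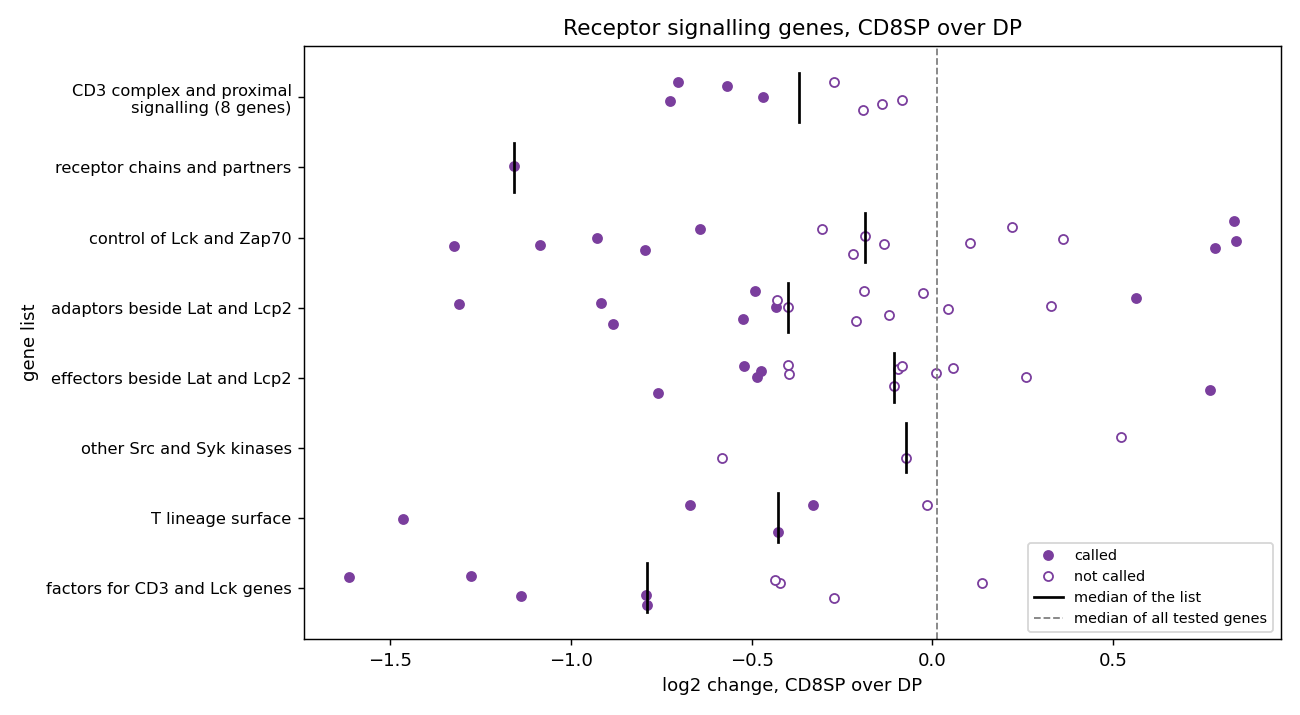
Log2 change of CD8SP over DP (horizontal axis) for each tested gene of the 8 lists (vertical axis, points spread vertically for legibility); filled points were called, bars are list medians and the dashed line is the median of all tested genes, 0.01. The medians of all 8 lists lie left of the dashed line, and 5 genes are called to its right.

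Trat1, which encodes the receptor-associated membrane adaptor TRIM, was the only tested gene among receptor chains and partners. It read 891 and 846 in DP, 601 and 602 in CD4intCD8+ cells and 416 and 359 in CD8SP. Its stages did not overlap, and it fell at the first step (-0.53 ± 0.12, adjusted p = 0.0249) and over the span (-1.16 ± 0.12). Of 15 genes that control Lck and Zap70, 5 fell and 3 rose over the span. Rhoh, a GTPase without catalytic activity that brings Zap70 to the receptor, fell (log2 change -1.09 ± 0.11), to 733 and 795 in CD8SP, against 1514 and 1747 in DP. Sla, an adaptor that promotes turnover of the receptor complex, also fell (-1.32 ± 0.10), as did Themis, which sets signal strength in positive selection (-0.93 ± 0.10). Cblb, a ubiquitin ligase that restrains T cell activation, rose (0.84 ± 0.15), whereas the related Cbl fell, at the first step by -0.72 ± 0.12 and over the span by -0.79 ± 0.12. Dusp22 (0.83 ± 0.16) and Unc119 (0.78 ± 0.19), named after their values were seen, made up the other rises, and Dusp22 was also the 1 gene that rose at the first step (0.69 ± 0.16). Ptprc, the phosphatase CD45 that activates Src kinases, and Csk, the kinase that inhibits them, were not called, with whole-span values of -0.22 ± 0.11 and -0.30 ± 0.17, and were likewise named after these were seen.

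Among 15 adaptors beside Lat and Lcp2, 6 fell and 1 rose from DP to CD8SP. Sit1, a transmembrane adaptor that lowers receptor signalling, fell (-1.31 ± 0.15), to 234 and 266 in CD8SP, against 589.9 and 666 in DP. Sh3bp2 fell (-0.92 ± 0.17), as did the inhibitory adaptor gene Dok2 (-0.88 ± 0.14), while Lax1, a Lat-like adaptor that limits signalling, rose (0.56 ± 0.16). The first step had 3 that fell, Sit1 (-0.99 ± 0.15), Dok2 (-0.76 ± 0.14) and Fyb, an adaptor that links SLP-76 to integrins (-0.52 ± 0.10). The called genes thus held both adaptors known to pass the signal on and adaptors known to dampen it.

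Of 13 effectors that act at Lat and SLP-76, 4 fell and 1 rose over the span. Txk, a kinase of the Tec family, fell (-0.76 ± 0.15), and so did Rasgrp1, the exchange factor that starts Ras signalling (-0.52 ± 0.09), and Prkcq, protein kinase C theta (-0.48 ± 0.12). Malt1, a protease of the NF-kappaB branch, rose (0.77 ± 0.15), to 169 and 188 in CD8SP, against 111 and 94.3 in DP. Those that fell at the first step numbered 4: Txk (-0.67 ± 0.15), Rasgrp1 (-0.41 ± 0.09) and the diacylglycerol kinase genes Dgkz (-0.48 ± 0.11) and Dgka (-0.45 ± 0.10), whose products end the Ras signal. Dgka gave 1621 and 1527 in DP, 1235 and 1078 in CD4intCD8+ cells and 1549.9 and 1421 in CD8SP. Its DP and CD8SP arrays overlapped, and the test of whether its steps differ was not passed (adjusted p = 0.280).

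Of 3 other Src and Syk family kinases that passed the filter, Yes1, Blk and Syk, 0 were called in any of the 3 comparisons (limma). Blk and Syk had an unadjusted p under 0.05 over the whole span, at 0.52 ± 0.20 and -0.58 ± 0.25. Among 5 surface proteins of the T lineage, 4 fell over the span. The costimulatory receptor gene Cd28 fell (-1.47 ± 0.17), with Thy1 (-0.67 ± 0.10), Cd2 (-0.43 ± 0.12) and Cd5 (-0.33 ± 0.10). Cd6, named after its value was seen, was at -0.01 ± 0.16. Thy1, a surface glycoprotein that is no part of the relay, read 2793 and 3151 in CD8SP, against 4342 and 5150.4 in DP.

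Of 9 transcription factors known to act at CD3 and Lck genes or in T lineage identity, 5 fell from DP to CD8SP and 0 rose. Myb fell (-1.62 ± 0.12), to 472 and 553 in CD8SP, against 1629 and 1525 in DP. Runx1 (-1.28 ± 0.23), Gata3 (-1.14 ± 0.15) and Bcl11b, which maintains T cell identity (-0.79 ± 0.09), fell as well. At the first step 4 fell: Myb (-1.01 ± 0.12), Tcf12, an E protein gene (-0.62 ± 0.12), Gata3 (-0.58 ± 0.15) and Bcl11b (-0.48 ± 0.09). Ets1, named after its value was seen as the factor of the Ets family on the list, was at -0.43 ± 0.17 over the span (adjusted p = 0.0990).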

How the data were processed

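The 6 arrays, 2 for each of DP, CD4intCD8+ and CD8SP thymocytes, were grouped by their titles. The table that the authors deposited holds a linear intensity for each of 45101 probes (64 of them controls). Their scaling and software are not given in the sources used here, and 2.78 to 4.33% of an array's values lie below 0. Negative intensities were raised to 0 before taking log2(intensity + 5.84), where 5.84 is the 10th percentile of positive values. Fold changes on this scale understate those of dim genes. Each gene was represented by its brightest single-symbol probe, and genes under the 40th percentile of means were left out, which kept 10916. All 8 genes and their 15 probes passed. Their Entrez numbers matched the RefSeq gene table in 8 of 8 cases.

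Limma 3.58.1 (R 4.3.3; lmFit and eBayes with trend, a model of stage alone with 3 residual degrees of freedom) was fitted to all 6 arrays, for genes and for all probes, with Benjamini-Hochberg adjustment within each contrast and a threshold of 0.05. The fit was tested on simulated data with independent noise on each array. Such data hold no deviations shared between arrays with the same replicate number, so the simulation does not cover them. Values after ± are SE unless marked SD. The number of arrays limits the precision. Replicate numbers are shared between stages, and deviations of same-numbered arrays correlated by 0.26, 0.30 and 0.21 in the 3 pairs of stages. The labels name independent experiments, but that a replicate number stands for an experiment is an assumption. The main fit leaves the numbers out. The blocked fit, which takes them as pairs, is given for the 8 genes where it changes a call. For the wider pathway it is given only as counts at the single steps. Alternatives were pseudocounts of 1 and 32, no filter or the 60th percentile, the mean of all probes, quantile normalization, no trend, the 4 arrays compared, the block, the actin ratio as covariate and each array left out. Genes and lists were chosen with earlier results of these data known. Named genes are the 8, their 3 nearest genes, and up to 4 called genes of each list with the largest change; others are marked.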

Additional observations from a re-analysis of the deposited data

How the results depend on the processing

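The 8 genes kept their direction in 125 of 128 results at the first step and 121 of 128 at the second. Over the whole span they kept it in 123 of 128. Direction and call were kept in 107, 121 and 115. Many of these results could not change direction, since their setting leaves the log2 change as it was. Such settings were the filters, no trend, only the arrays compared, the block and leaving out an array of the stage not compared. For single-probe genes the mean of all probes was another. The counts of kept direction are therefore not a measure of robustness. Reversals were limited to uncalled changes of Cd3g, Fyn and Lat, and the cause was not tested. Under the actin covariate Cd3g was 0.38 at the first step and 0.074 over the span, Fyn was 0.092, -0.022 and 0.070 at the first step, second step and span, and Lat was -0.068 at the second step. With an array left out and in the same order, Cd3g ranged from -0.40 to 0.12, -0.31 to 0.21 and -0.42 to 0.040, Fyn from -0.34 to -0.070, -0.013 to 0.26 and -0.21 to 0.048, and the second step of Lat from -0.10 to 0.14.

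The first-step count of 2 genes was 1 without the filter, 1 with the mean of all probes, 1 after quantile normalization, 0 without the trend, 0 with the actin covariate and 6 with the replicate block, and 0 to 3 with an array left out. The whole-span count of 4, where 19.8% of all genes were called, was 2 with the mean of all probes (14.2%). It was lower in some fits with an array left out, where fewer of all genes were called too. For the wider pathway the first-step count of 20 was 11 without the trend, 34 with the block, 9 with actin and 4 to 21 with an array left out; the second-step count of 0 was 7 with the block and 1 with the actin covariate; the whole-span count of 30 was 18 to 30 with an array left out. Over all genes the first-step count of 1277 was 764 with the mean of all probes, 801 without the trend, 2562 with the block, 407 with actin in the fit, 314 and 186 without DP replicate 1 and 2 and 472 without CD4intCD8+ replicate 2. Its second-step count of 13 lay between 2 and 227, the highest with the block, and its whole-span count of 2166 between 997 (without DP replicate 2) and 3277 (with the block). With 2 arrays per stage the standard errors of the 8 genes were 0.09 to 0.18, which limits what could be called.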
